A study of Medicago truncatula with 160 samples.

Results

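TML2 is a root-acting brake on nodulation in the model legume Medicago truncatula, and its transcript was followed here in nodules of 160 plants, each inoculated with 1 strain of the nitrogen-fixing bacterium Sinorhizobium meliloti. The genes were chosen by row, as the identifiers for TML2 (MtrunA17_Chr6g0459491, on chromosome 6 by its identifier) and for the receptor kinase SUNN (MtrunA17_Chr4g0035451). Of the 2 rows named, 1, that of TML2, was found among the 49928 M. truncatula rows of the count table, and SUNN was not analysed here. The experiment crossed 2 inbred host lines, DZA and A17, with 20 natural strains of S. meliloti, labelled by number, and sequenced messenger RNA from the nodules of 4 plants for each of the 40 combinations, so that each library is 1 plant. The labels name no transgene or deletion, all plants grew in a greenhouse in a sterilised mix of turface, sand and field soil, and no library of uninoculated roots was analysed. Each host is 1 line, so a difference between them is a difference between 2 genotypes.

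Legumes limit how many nodules they form through a loop called autoregulation of nodulation. Roots that have begun to nodulate make small CLE peptides, among them CLE12 and CLE13, which travel to the shoot and are perceived there by receptor kinases such as SUNN. The shoot then alters the supply of a microRNA, miR2111, that moves to the root and targets the transcripts of TML1 and TML2, which encode Kelch-repeat F-box proteins that restrain further nodulation. NIN, a transcription factor needed for nodule inception, switches on the CLE genes. This background concerns roots and shoots, whereas the values below come from nodules.

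M. truncatula counts per library ranged between 6527120 and 58577582 on DZA (median 31559791) and between 2282889 and 58439182 on A17 (median 35261213). S. meliloti took 3.68% to 87.5% of the counts of a DZA library and 5.35% to 96.3% of those of an A17 library, and levels of plant genes were therefore expressed relative to the M. truncatula counts of the library (CPM), scaled by TMM, a method that sets libraries against each other by the bulk of their genes. All 5 nodule markers checked, NCR169, NAD1, SymCRK, VTL8/SEN1 and DNF1, had counts in every library, except that NAD1 stood at 0 in 1 library. The host check over 50 genes put 0 of 160 libraries on the wrong host. By their S. meliloti genes, 2 libraries carried another strain than labelled. These were DZA 182 plant 3406, with the genes of 176A, and A17 89 plant 3514, with those of 724B. In 6 others, genes of a second strain were found. These 6 were DZA 176A plant 3292, DZA 25B plant 3475, A17 121 plant 3373, A17 25B plants 3300 and 3435, and A17 724B plant 3246. Plant 3292 matched its labelled strain at 63.8% of the variable genes and strain 182 at 82.8%. Plant 3300 matched its label at 81.3% and strain 182 at 85.6%, and plant 3246 its label at 79.8% and strain 278 at 81.2%. How much of the labelled strain these libraries held was not settled. All 8 were kept under their labels, and results are also given without them. Strains 282 and 283, and strains 182 and 89, could not be told apart by this check.

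TML2 was detected in all 160 libraries, with 15 to 2627 counts in DZA plants and 8 to 2063 counts in A17 plants. Its level on DZA had a lowest value of 3.34 CPM, a median of 14.3 CPM and a highest value of 45.2 CPM over 80 plants. On A17 the lowest value was 1.31 CPM, the median 11.0 CPM and the highest 29.6 CPM over 80 plants. The ranges of the hosts overlapped over most of their length. The mean was 15.9 ± 8.50 CPM on DZA and 12.6 ± 6.65 CPM on A17 (SD, n = 80 plants each).

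With strain as a term and all 160 plants in the fit, TML2 was higher on DZA by 0.30 ± 0.12 on the log2 scale (SE), with an adjusted p of 0.0347 by edgeR's quasi-likelihood test and Benjamini-Hochberg adjustment over 37672 genes. That test called 53.2% of all genes between the hosts, 27.1% higher and 26.1% lower on DZA, so a call in this comparison was common. The call did not hold without replicate 1 (log2 difference 0.15, adjusted p 0.38) or without replicate 2 (0.29, adjusted p 0.0724). Nor did it hold when the strain was taken as the unit: the mean of the 20 strain differences was 0.35 on the log2 scale with an SD of 0.80, and a two-sided sign-flip permutation test over strains gave p = 0.0617. It was also lost without the 8 libraries that carried other strains (log2 difference 0.27, adjusted p 0.0607) or in CPM without TMM scaling (0.10, adjusted p 0.653). With the ratio of S. meliloti to M. truncatula counts as a covariate in edgeR the call held (0.42, adjusted p 7.71e-04). Reads of both hosts were counted against the A17 reference, so a difference in transcript level and one in how reads of DZA match that reference cannot be told apart. In whole nodules, fewer cells that express the gene and less transcript per cell cannot be told apart either.

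**Figure D1:**
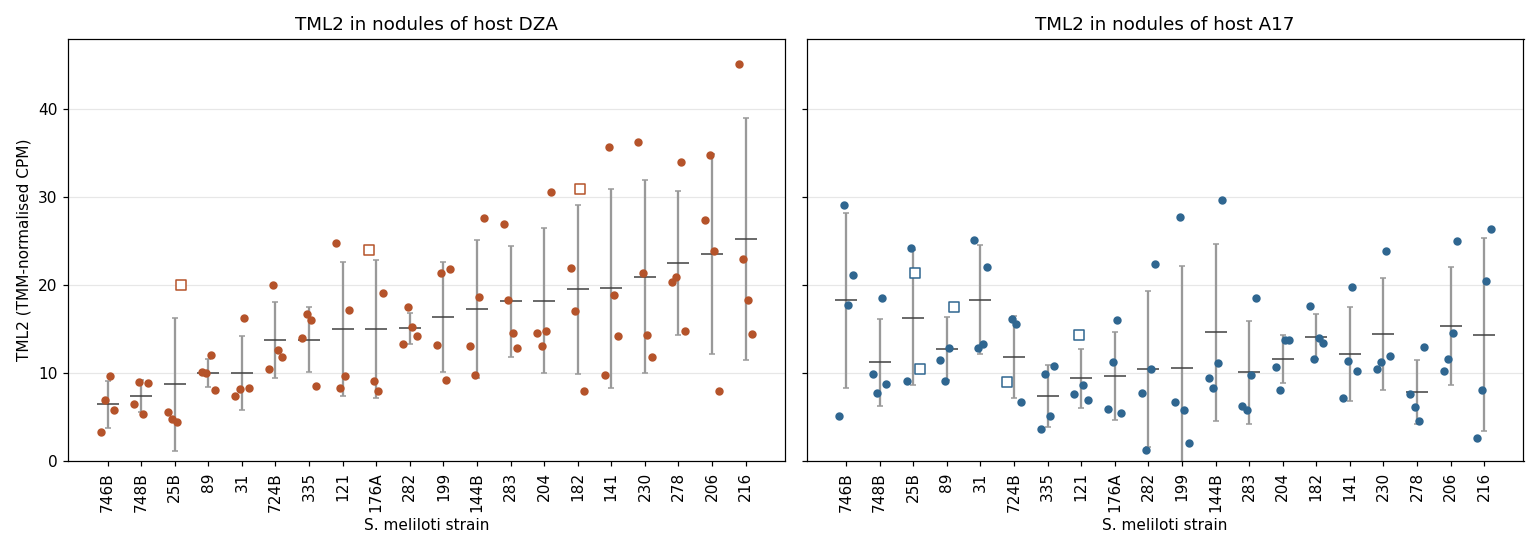
TML2 in TMM-normalised CPM (y axis) for each plant, by S. meliloti strain (x axis, in rising order of the DZA mean in both panels), on DZA (left) and A17 (right). Points are plants, open squares are the libraries that carried another or a second strain, and bars are the mean ± SD of 4 plants. On DZA the strain means run between 6.48 and 25.2 CPM, while the same order of strains shows no such slope on A17.

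Among DZA plants the strain means of TML2 spanned 3.90-fold. The highest mean was that of strain 216, with 14.5, 18.3, 23.0 and 45.2 CPM (25.2 ± 13.7, SD, n = 4). Strain 206 followed with 7.98, 23.9, 27.5 and 34.9 CPM, and strain 278 with 14.8, 20.4, 21.0 and 34.0 CPM. All but 1 of these 12 plants were above the median of DZA plants. The means of strains 230 (21.0 CPM), 141 (19.7 CPM), 182 (19.5 CPM), 204 (18.3 CPM), 283 (18.2 CPM), 144B (17.3 CPM) and 199 (16.4 CPM) came next. Strains 282 (15.1 CPM), 176A (15.1 CPM), 121 (15.0 CPM), 335 (13.8 CPM) and 724B (13.8 CPM) formed the lower middle of the order. Without the libraries that carried other strains the means of 182 and 176A were 15.7 and 12.1 CPM (n = 3 each).

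At the bottom of the DZA order stood strains 89, 31, 25B, 748B and 746B. Strain 746B had 3.34, 5.83, 7.02 and 9.73 CPM on DZA (6.48 ± 2.66, SD, n = 4), and strain 748B had 5.35, 6.55, 8.89 and 9.01 CPM. All 8 of these plants lay below every plant of strains 216 and 278. Strain 25B had 4.44, 4.85 and 5.63 CPM in the 3 libraries that carried its own genes, and 20.0 CPM in plant 3475, which also held a second strain. Without that plant its mean was 4.98 ± 0.60 CPM (SD, n = 3), the lowest on DZA, against 8.74 CPM with it. Strain 31 had 7.38, 8.21, 8.34 and 16.3 CPM, and strain 89 had 8.06, 9.99, 10.2 and 12.0 CPM.

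The differences between strains on DZA passed the test across all genes (edgeR F = 2.81, unadjusted p = 0.00104, adjusted p = 0.0299), which called 4.2% of 34224 genes. On simulated counts this F test called more false genes than its threshold implies. A permutation of strain labels over the 80 DZA plants gave F = 2.96 and p = 7e-04 for TML2 alone, and leaving out each strain in turn, a step added after the data were seen, gave p between 4e-04 and 0.0084. The strain means held 48.4% of the variance of log2 CPM among DZA plants. Such a share is above 0 even without a strain effect, since means of 4 plants differ by sampling. Neighbours in the order did not separate, since the plants overlapped in all 19 neighbouring pairs, and 24 of all 190 pairs did not overlap. Over all genes tested, 3.13% of such pairs did not overlap on DZA. Plants of 1 strain differed by a median factor of 2.59 between the highest and the lowest of 4.

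This call moved with the processing. Without the libraries that carried other strains the adjusted p was 0.00192. It was 0.0523 with the ratio of S. meliloti to M. truncatula counts as a covariate, 0.136 by limma-voom and 1 in CPM without TMM scaling. Leaving out replicate 1, 2 or 3 gave 0.626, 0.443 and 0.222, and leaving out replicate 4 gave 0.00099.

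On A17 the strain means spanned 2.49-fold, and differences between strains did not pass the same test (F = 0.98, unadjusted p = 0.492, adjusted p = 1, with 1.63% of 34843 genes called). A permutation of strain labels over the 80 A17 plants gave p = 0.51. The strain means held 23.4% of the variance of log2 CPM among A17 plants, a share that permuted labels reached about as often as not. Of 190 pairs of strains 2 did not overlap, against 1.93% of pairs over all genes. The highest means were those of strain 31, with 12.9, 13.4, 22.1 and 25.2 CPM (18.4 ± 6.21, SD, n = 4), and strain 746B, with 5.21, 17.8, 21.2 and 29.1 CPM (18.3 ± 9.94, SD, n = 4). Strain 25B ranked 3 with 9.10, 10.5, 21.5 and 24.2 CPM, of which 10.5 and 21.5 CPM came from libraries with a second strain. The lowest means were those of strain 278, with 4.55, 6.20, 7.64 and 13.0 CPM, and strain 335, with 3.67, 5.16, 9.96 and 10.8 CPM. Every plant of strain 31 lay above every plant of strain 335, and all other pairs among these 5 groups overlapped. The lowest value of strain 278 rested on 19 counts, and those of strains 335 and 746B on 92 and 193 counts.

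The other A17 means fell between these ends. Strains 206 (15.4 CPM), 144B (14.7 CPM), 230 (14.4 CPM), 216 (14.4 CPM), 182 (14.2 CPM), 89 (12.8 CPM) and 141 (12.2 CPM) were above or near the A17 mean. Strains 724B (11.9 CPM), 204 (11.6 CPM), 748B (11.3 CPM), 199 (10.6 CPM), 282 (10.5 CPM), 283 (10.1 CPM), 176A (9.71 CPM) and 121 (9.42 CPM) were below it. Pooled over strains, log2 CPM around the strain mean had an SD of 0.64 on DZA and 0.85 on A17. The widest A17 groups were strains 282, 199 and 216, with SDs of 1.71, 1.53 and 1.50. Each of them held a library with few TML2 counts, of 8, 18 and 10. The difference in spread between hosts was not tested.

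The means placed several strains differently on the hosts, as a description of the order. Strains 746B, 25B and 31 ranked 20, 18 and 17 of 20 on DZA and 2, 3 and 1 on A17. Their mean levels were 6.48, 8.74 and 10.1 CPM on DZA against 18.3, 16.3 and 18.4 CPM on A17. Strain 278 ranked 3 on DZA and 19 on A17, at 22.5 CPM on DZA against 7.84 CPM on A17. It was the 1 strain whose DZA plants all lay above its A17 plants, where 3.38% of all genes did so for that strain, and the plants of the other 19 strains overlapped between hosts. Of the 20 strains, 15 had a higher mean log2 CPM on DZA and 5 a lower one.

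**Figure D2:**
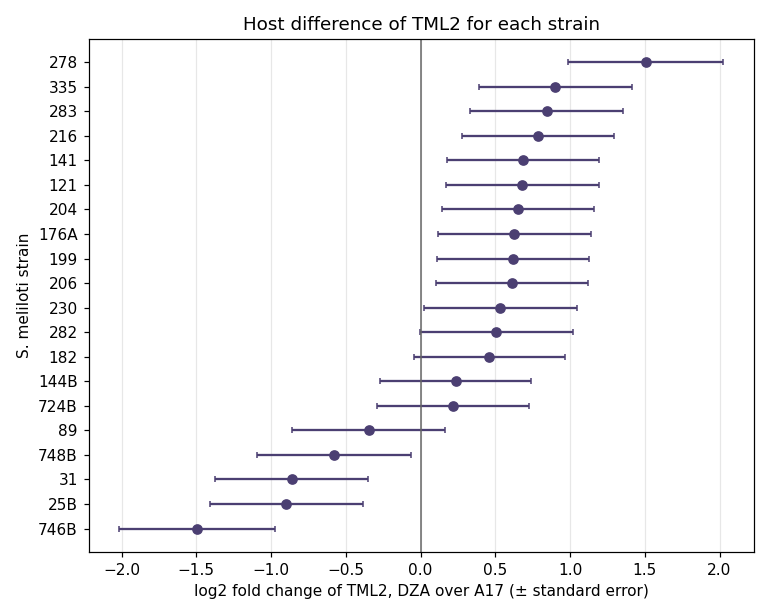
Log2 fold change of TML2, DZA over A17 (x axis), for each strain (y axis), fitted with 4 plants a host; bars are standard errors. The fitted values run between -1.50 for strain 746B and 1.50 for strain 278, and 5 strains lie below 0.

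Fitted strain by strain, the log2 difference was 1.50 ± 0.52 for strain 278, 0.90 ± 0.51 for strain 335 and 0.84 ± 0.51 for strain 283 (SE). At the other end it was -1.50 ± 0.52 for strain 746B, -0.90 ± 0.51 for strain 25B and -0.86 ± 0.51 for strain 31. Whether the host difference varied among strains was tested with the 19 interaction terms together, which gave F = 2.04 and an unadjusted p of 0.0105. The adjusted p was 0.24, in a test that called 1.05% of 37672 genes, so the interaction did not pass the threshold. Without the 8 libraries that carried other strains its adjusted p was 0.101, and without replicate 4 it was 0.00992. With the bacterial count ratio as a covariate the adjusted p of the interaction was 0.38. The strain means of the hosts were not related beyond what permuted strains gave (Pearson's r = -0.35, p = 0.138, Spearman's rho = -0.19, p = 0.42, n = 20 strains, adjusted p = 0.138 for r and 0.42 for rho over 3 relations). Without the 2 strains farthest from the A17 median r was -0.39 (permutation p = 0.109).

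The S. meliloti share of a library's counts moved with TML2 on both hosts. Over the 20 strains on DZA TML2 fell with the share, with r = -0.70 (permutation p = 5.5e-04, adjusted p = 0.00165 over 3 relations) and rho = -0.55 (p = 0.013, adjusted p = 0.0195). Leaving out strains 31 and 25B, whose shares were farthest from the median, gave r = -0.61 (permutation p = 0.00665). Strains 31, 25B, 89, 746B and 748B had the 5 highest mean shares, 47.4% to 57.7%, and also the 5 lowest mean levels of TML2, 2.61 to 3.32 log2 CPM. The remaining 15 strains had shares of 17.2% to 41.9% and levels of 3.74 to 4.52 log2 CPM. The same 5 strains were the lowest in CPM without TMM scaling and without the libraries that carried other strains. Over the other 15 strains r was 0.0365 (permutation p = 0.897) and rho 0.03 (p = 0.933). This split was made after the data were seen and also removes the 5 lowest levels of TML2. It narrows the range of both measures, so these values cannot decide whether the relation holds apart from those 5 strains.

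On A17 the same 5 strains had mean shares of 20.1% (31), 34.4% (25B), 21.8% (89), 25.1% (746B) and 33.5% (748B). Over all 20 strains TML2 fell with the share on A17, with r = -0.48 (permutation p = 0.0297, adjusted p = 0.0445 over 3 relations) and rho = -0.58 (p = 0.00832, adjusted p = 0.0195). Leaving out strains 121 and 31, whose shares were farthest from the median, gave r = -0.55 (permutation p = 0.0181). Without the libraries that carried other strains r was -0.43 (adjusted p = 0.0871), and without replicate 1 it was -0.34 (adjusted p = 0.167).

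**Figure D3:**
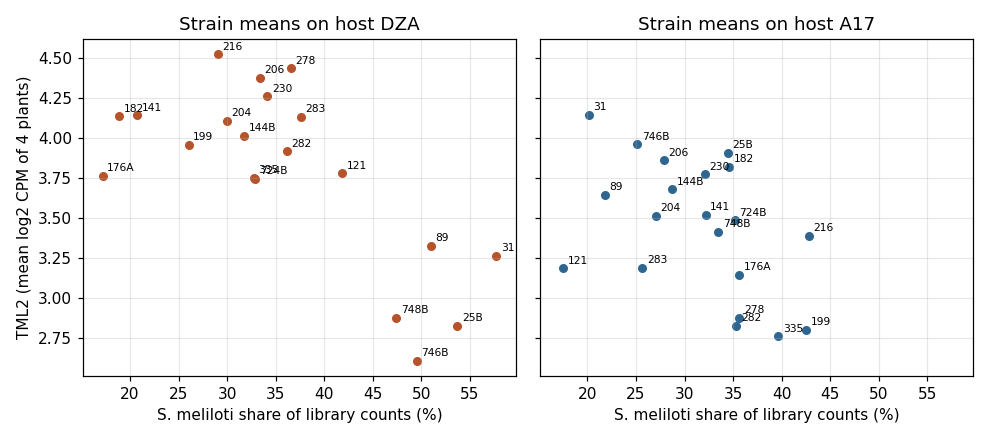
Mean TML2 level of a strain in log2 CPM (y axis) against its mean S. meliloti share of library counts in percent (x axis), on DZA (left) and A17 (right); each point is a strain, the mean of 4 plants. On DZA 5 strains lie apart at shares of 47.4% or more and at most 3.32 log2 CPM.

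Plants of the same strain could be compared with each other in the same way, as deviations from the mean of their host and strain, a comparison added after the data were seen. TML2 was lower in plants with a higher S. meliloti share than their strain mates on DZA (r = -0.26, rho = -0.27, adjusted p = 0.0373 for r and 0.0371 for rho, n = 80 plants) and on A17 (r = -0.60, rho = -0.58, adjusted p = 1.5e-04 and 3e-04, n = 80 plants). Labels were permuted within strains, and p-values were adjusted over 10 relations. Without the 2 plants farthest on the share r was -0.25 on DZA and -0.57 on A17. The difference between these values was not tested. Over the 160 plants, centred on host and strain, TML2 also had r = 0.41 with NCR169, 0.24 with NAD1, 0.34 with SymCRK, 0.43 with VTL8/SEN1 and 0.32 with DNF1, the 5 markers of nitrogen-fixing nodule tissue, given as a description. With the listed genes outside these markers r ran between -0.18 (CLE12) and 0.47 (TML1), with LATD/NIP at 0.45 and DMI3 at 0.44. Values of this size were therefore not particular to the markers. The part of the bacterial share or of the nodule tissue sampled in the level of TML2 was not tested beyond the covariate fits above.

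**Figure D4:**
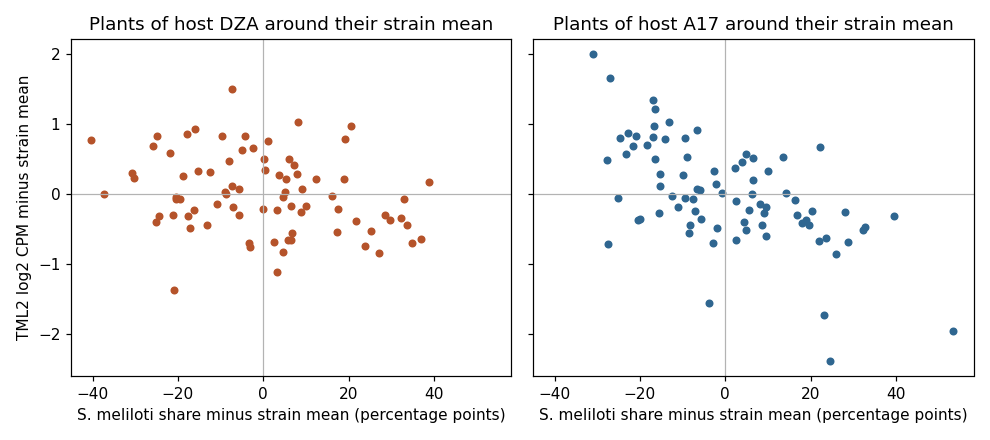
TML2 log2 CPM minus the mean of its host and strain (y axis) against the S. meliloti share minus the same mean, in percentage points (x axis), for 80 plants of DZA (left) and 80 of A17 (right). The cloud slopes down in both panels, with r of -0.26 on DZA and -0.60 on A17.

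TML1, the paralogue of TML2 that acts with it in the root, was not called between hosts. It measured 5.40 ± 2.32 CPM on DZA and 5.11 ± 1.43 CPM on A17 (SD, n = 80 each), a log2 difference of 0.05 ± 0.08 (SE, adjusted p = 0.556). Among plants of a strain TML2 rose with TML1, with r = 0.29 on DZA (rho = 0.30, adjusted p = 0.0316 for r and 0.0354 for rho) and r = 0.62 on A17 (rho = 0.49, adjusted p = 1e-04 and 3e-04; unadjusted p for r 1e-05, the smallest the permutations can give). Without the 2 plants farthest on TML1 r was 0.29 on DZA and 0.58 on A17. The counting program shares reads among similar transcripts, and its part in this relation was not tested.

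CLE13, a peptide gene of the same loop, was higher on DZA. Its lowest, median and highest levels were 0.50, 2.85 and 5.52 CPM on DZA, against 0, 1.99 and 4.60 CPM on A17. The log2 difference was 0.48 ± 0.12 (SE, adjusted p = 1.64e-04 by edgeR), and it kept its sign and its call in all 11 alternatives. CLE12, its close relative, was low and stood at 0 in at least 1 library of each host, with 0.94 ± 0.76 CPM on DZA and 0.97 ± 0.63 CPM on A17 (SD, n = 80 each), with a log2 difference of -0.08 ± 0.20 (SE, adjusted p = 0.743). NIN measured 182 ± 48.3 CPM on DZA and 185 ± 45.9 CPM on A17, with a log2 difference of -0.03 ± 0.07 (SE, adjusted p = 0.745). Of these 4 genes of nodule number control, 1 was called between hosts and the median log2 difference was 0.01, against 53.2% of genes called and a median of 0.08 over all genes.

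None of the 4 was called between strains on DZA, between strains on A17 or for the interaction of host and strain by edgeR. Over strain means TML2 showed no relation with TML1, CLE12, CLE13 or NIN that passed the threshold, in 8 relations added after the data were seen. The strongest of them was with TML1 on A17, with r = 0.50 (p = 0.0239, adjusted p = 0.191) and rho = 0.52 (p = 0.0213, adjusted p = 0.171). Without the 2 strains farthest on TML1 it was 0.44 (permutation p = 0.0673). Among plants of a strain, by contrast, TML2 on A17 also rose with NIN (r = 0.47, rho = 0.39, adjusted p = 0.00343 for r and 0.0077 for rho) and with CLE13 (r = 0.32, rho = 0.30, adjusted p = 0.0138 for r and 0.0366 for rho). Without the 2 farthest plants these were 0.35 and 0.30. On DZA r was 0.10 with NIN, 0.08 with CLE13 and -0.29 with CLE12, with adjusted p of 0.522, 0.525 and 0.0652, and on A17 it was -0.08 with CLE12 (adjusted p = 0.525).

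**Figure D5:**
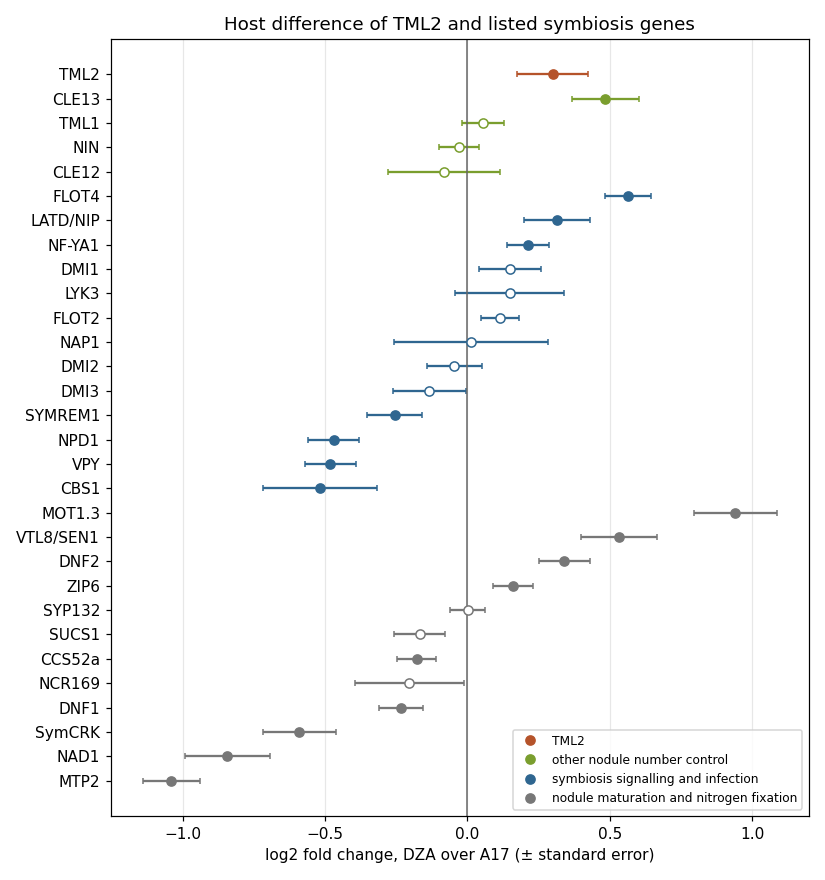
Log2 fold change, DZA over A17 (x axis), of TML2 and 29 listed symbiosis genes (y axis), with standard errors; filled points passed the adjusted p threshold of 0.05. TML2 lies at 0.30 and CLE13 at 0.48, while TML1, NIN and CLE12 lie within 1 standard error of 0.

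Genes of symbiosis signalling and infection gave the setting in which TML2 was measured. Of 13 such genes, 3 were higher on DZA, 4 were lower and 6 did not pass the test, with a median log2 difference of 0.01. FLOT4, a flotillin of infection threads, was higher by 0.56 ± 0.08, LATD/NIP, a nitrate transporter needed for nodule and root meristems, by 0.31 ± 0.12, and NF-YA1, a transcription factor of the nodule meristem, by 0.21 ± 0.07 (SE). LATD/NIP and NF-YA1 were no longer called in CPM without TMM scaling, where their differences were 0.26 and 0.15, nor LATD/NIP without replicate 1 (0.18, adjusted p 0.244) or 3 (0.26, adjusted p 0.0921) and NF-YA1 without replicate 4 (0.17, adjusted p 0.0876). CBS1, VPY and NPD1, of which VPY (Vapyrin) is needed for infection threads, were lower on DZA, with log2 differences of -0.52 ± 0.20, -0.48 ± 0.09 and -0.47 ± 0.09. CBS1 lost its call without replicate 2 (-0.33, adjusted p 0.176) and without replicate 3 (-0.55, adjusted p 0.0514).

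Of 12 genes of nodule maturation and nitrogen fixation, 4 were higher on DZA, 5 were lower and 3 did not pass the test, with a median log2 difference of -0.17. MOT1.3, a molybdate transporter, VTL8/SEN1, an iron transporter, and DNF2, which keeps defence down in the nodule, were higher by 0.94 ± 0.15, 0.53 ± 0.13 and 0.34 ± 0.09. DNF2 lost its call in CPM without TMM scaling, at 0.24. MTP2, a zinc transporter, NAD1, which also restrains defence, and SymCRK, a receptor-like kinase with that role, were lower, with log2 differences of -1.04 ± 0.10, -0.84 ± 0.15 and -0.59 ± 0.13. The shares of called genes in both lists stand beside 53.2% over all genes.

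Between strains, 3 of the 29 listed genes other than TML2 were called on DZA and 1 on A17, against 4.2% and 1.63% of all genes. They were FLOT2, FLOT4 and SUCS1, the nodule sucrose synthase, on DZA, and FLOT4 on A17, named here after their values were seen. For the interaction of host and strain 0 of the 29 were called at an adjusted p under 0.05 by edgeR.

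Across the 40 means of host and strain, centred within host, the genes whose pattern was most like that of TML2 carry no name in the table. MtrunA17_Chr7g0220571 had r = 0.87 (0.89 over 20 DZA means and 0.82 over 20 A17 means) and MtrunA17_Chr5g0400141 had r = 0.84 (0.91 and 0.73). The most opposite patterns were those of MtrunA17_Chr7g0258901, with r = -0.81, and MtrunA17_Chr0c02g0489671, with r = -0.79, both at mean levels of 0.27 and 0.18 CPM that rest on few counts. Of 37671 genes compared, 154 had r above 0.7 and 69 below -0.7, with a median of -0.06. The means of all genes come from the same libraries and share their depth and scaling, so these values are a description. Among the listed genes the most alike were SUCS1 (r = 0.56), VPY (r = 0.48) and TML1 (r = 0.43), and the least alike was FLOT4 (r = -0.41).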

How the data were processed

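Nodule RNA of 160 M. truncatula plants (2 hosts, 20 strains, 4 plants each) was sequenced with a stranded mRNA kit on 1 lane. The file the authors deposited holds expected counts, that is, estimates of the reads of each gene. Per the authors' methods, reads were assigned by Salmon to transcripts of both organisms (A17 r5.0 for the plant) and summed to genes by tximport with its bias correction applied to the counts. The submitters' processing notes name Salmon 1.4.0, bcl2fastq 2.20 and R 4.1.0. The values are not normalised. All 160 columns were matched to samples by name.

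Members and gene lists were chosen with earlier results of these data known. M. truncatula counts were rounded, a gene was kept if 4 or more libraries had 10 or more counts, and TMM and quasi-likelihood F tests were run in edgeR 4.0.16 (R 4.3.3), with strain as a term between hosts, strain within each host, and the interaction over all libraries. DESeq2 1.42.0 and limma 3.58.1 served as alternatives. Log2 CPM used a prior count of 2. Calls required an adjusted p (Benjamini-Hochberg) under 0.05. Permutation tests were two-sided with 100000 resamples, 10000 where a strain was left out. The models were tested on simulated counts. Named genes were TML2, the 4 other genes of nodule number control, up to 3 genes per direction with the largest change among those called in each of 2 further lists, and the genes most and least like TML2. Replicates were numbered in accession order. Sequences, coordinates and the planned leghemoglobin and green-tissue markers were not used here, since no reference paired them with the table's identifiers.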

Additional observations from a re-analysis of the deposited data

Results flagged for a closer look

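In 5 of the 40 combinations of host and strain, 1 plant of 4 stood far from the others in TML2 by Dixon's criterion. Chance gives about 5% of groups if values are normally distributed, whereas the criterion was applied to CPM without a log. The 5% is therefore only a rough guide here. On DZA these were strain 204 plant 3488 at 30.6 CPM, against 13.1 to 14.8 CPM in the other plants, strain 25B plant 3475 at 20.0 CPM, against 4.44 to 5.63 CPM, and strain 31 plant 3389 at 16.3 CPM, against 7.38 to 8.34 CPM. On A17 they were strain 144B plant 3493 at 29.6 CPM, against 8.37 to 11.1 CPM, and strain 230 plant 3440 at 23.9 CPM, against 10.5 to 12.0 CPM. All 5 were the highest of their group. Of these libraries, that of strain 25B plant 3475 also held the genes of a second strain, and the other 4 carried the strain of their label by the same check.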

How the results depend on the processing

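The host difference of TML2 was positive in all 12 alternatives and passed the threshold in 7 of them. It did not pass in CPM without TMM scaling (0.10), without the libraries that carried other strains (0.27) or by sign-flip permutation (0.35), and it ranged between 0.15 and 0.42 when a replicate was left out, with the call lost without replicate 1 or 2. For strains on DZA the adjusted p was 1 without TMM scaling, 0.136 by limma-voom and 0.0523 with the bacterial count ratio as a covariate, and ranged between 0.00099 and 0.626 without 1 replicate. On A17 none of the 32 alternatives passed, the permutations with each strain left out among them (p 0.33 to 0.663). The interaction ranged between 0.00992 and 1 without 1 replicate. The relation of TML2 with the bacterial share on DZA (r = -0.70) kept its sign and its call in 8 other settings (-0.81 to -0.59), and r was 0.0365 without the 5 strains of highest share, an alternative added after the data were seen. On A17 r was -0.43 without the libraries that carried other strains and -0.62 to -0.34 without 1 replicate. Between hosts r ranged between -0.45 and -0.115 without 1 replicate. Causes of these changes were not tested, and leaving out a replicate also lowered the number of plants in the fit.

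Genes called between strains on DZA numbered 1437, against 741 without TMM scaling, 3367 by DESeq2 and 553 to 1264 without 1 replicate. On A17 they numbered 569, against 935 with DESeq2's size factors, 90 by limma-voom, 119 with the covariate, 3721 by DESeq2 and 212 to 546 without 1 replicate. For the interaction they numbered 395, against 636 with DESeq2's size factors, 143 without TMM scaling, 620 without the filter, 193 by limma-voom and 59 to 309 without 1 replicate. Counts between hosts stayed within 1.5 times 20049. No paired analysis was possible because plant numbers are unique and replicate numbers follow accession order. Alternatives for SUNN were not run. In simulated data the F tests across strains and of the interaction called more false genes than the threshold implies. Sampling of 4 plants a group limits the order of the strains.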
